A study of Mus musculus with 12 samples.

Results

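Tmc2, a transmembrane channel-like gene of mouse chromosome 2, was described in gonocytes, the male germ cells present around birth, at postnatal day 0 (P0), together with the copies of transposable elements (TEs) at its start and around it. The members were the 8 Tmc genes, found by symbol among 35666 listed genes, and 65 TE copies out of 298593 listed copies, namely those on chr2:130145000-130315000 (GRCm38), a window of 170.0 kb. Tmc2 and the window were picked because their values differed between Morc1 knockout (KO) and heterozygous (het) libraries. That difference is therefore a description, with no p and no weight as evidence, and counts of window copies past a threshold are given only beside the share over all copies. Values for the 7 other Tmc genes come from a test across all genes.

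The study addresses the effect of losing Morc1, which encodes an ATPase of germ cells, on the chromatin and transcripts of gonocytes. RNA came from male germ cells of the testes of Mvh-Venus transgenic mice, which carry a germ cell reporter. The groups compared were 3 libraries from Morc1 (+/-) mice and 3 from Morc1 (-/-) mice, all at P0 and all carrying the Mvh-Venus transgene. The other 6 samples, from postnatal day 3, were not analysed here. The labels do not say whether animals were pooled, and give no strain, agent or treatment.

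TMC proteins are membrane proteins with several transmembrane segments. TMC1 and TMC2 form the pore of the mechanotransduction channel in hair cells of the inner ear, where Tmc2 is used early and transiently in the cochlea and Tmc1 is kept in the adult. TEs are repeated sequences whose own promoters can start transcripts that run into neighbouring genes, and germ cells silence many of them by DNA methylation and repressive chromatin.

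The gene table held 28363683 to 32816861 reads per library and between 1974504 and 3703419 reads were on TE copies. Morc1 itself was at 7248, 7485 and 4126 normalized counts in the het libraries and at 1360, 1343 and 1794 in the KO libraries, so the labels and the targeted gene pointed the same way. Of the germ cell markers, Dazl, Ddx4, Mael and Dnd1 were abundant in all 6 libraries, whereas Nanos2 was below 50 normalized counts in each. Nanos3 stood at 87.7, 94.7 and 56.6 in het and at 58.4, 488 and 87.2 in KO libraries. The summed Leydig cell markers stood at 24921 normalized counts in het replicate 3 and at 510 to 1079 in the other 5 libraries. The 5 Sertoli cell markers summed to 11180 to 19675 in het and to 7934 to 9621 in KO libraries, with 3 of the 5 (Sox9, Amh and Clu) lower in every KO library than in every het library (5.57% of all tested genes were), none at 0 and none past the limma threshold. Myoid markers summed to 2531 to 3002 in het and to 2727 to 3394 in KO libraries. Endothelial markers summed to 1517 to 1904 and to 1222 to 2071, macrophage markers to 263 to 432 and to 314 to 333. Erythroid markers summed to 248 to 676 and to 284 to 945, and in all of these lists the groups overlapped. The part of these other cells in the results below was not tested. The 5 hair cell markers fixed for comparison (Atoh1, Pou4f3, Gfi1, Otof and Myo6) summed to 1910 to 2235 in het and to 1634 to 2266 in KO libraries, and none of them passed the test. Most of this sum was Myo6, at 1880, 1533 and 1573 in het and 1878, 1285 and 1607 in KO libraries. Pou4f3 stood at 40.0, 57.0 and 38.0 in het and at 98.0, 47.5 and 207 in KO libraries, with overlap. Of the 5 log2 differences, 2 were positive and 3 negative. In such bulk samples, fewer cells that express a gene and less RNA per cell cannot be told apart.

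The longest Tmc2 and Tmc1 transcripts align over 1826 bases with 66.7% identity, the best match of Tmc2 by alignment score. Shorter stretches match other members more closely, with 67.2% identity over 409 bases of the Tmc3 transcript and 91.8% over 61 bases of the Tmc8 transcript. The longest identical run between Tmc2-201 and Tmc1-201 is 22 bases. It is shown because it bounds how long a read could match these 2 transcripts without a mismatch. The identical run is in capitals, with 20 coding bases on each side. The Tmc2 stretch lies on the plus strand in 2 exons within chr2:130247955-130248655, and the Tmc1 stretch on the minus strand in 2 exons within chr19:20799206-20804626 (GRCm38, GENCODE M21).
Tmc2-201: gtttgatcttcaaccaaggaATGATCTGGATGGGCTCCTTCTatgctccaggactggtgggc
Tmc1-201: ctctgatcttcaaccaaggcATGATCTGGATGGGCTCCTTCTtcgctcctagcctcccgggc
Of the 62 bases printed, 51 are the same in both.

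Tmc2 (ENSMUSG00000060332) lies on the plus strand at chr2:130195194-130264445 and spans 69.3 kb, with 20 exons in Tmc2-201. In the het libraries it stood at 73.4, 35.7 and 55.6 normalized counts (54.9 ± 18.9, SD, n = 3). In the KO libraries it stood at 1252, 1870 and 1908 normalized counts (1677 ± 368, SD, n = 3). Every KO library was far above every het library, and the lowest KO library was KO replicate 1. The means differed 30.5-fold, and the difference on the log2(value + 1) scale was 4.94 with an SE of 0.33. Behind these values were 77, 37 and 57 reads in het and 1265, 1810 and 1947 reads in KO libraries. Among the 26005 genes tested, the Tmc2 mean moved from the 31.8th percentile in het to the 82.3rd in KO libraries. Without het replicate 3, the library with the Leydig cell RNA, the log2 difference was 4.98.

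**Figure D1:**
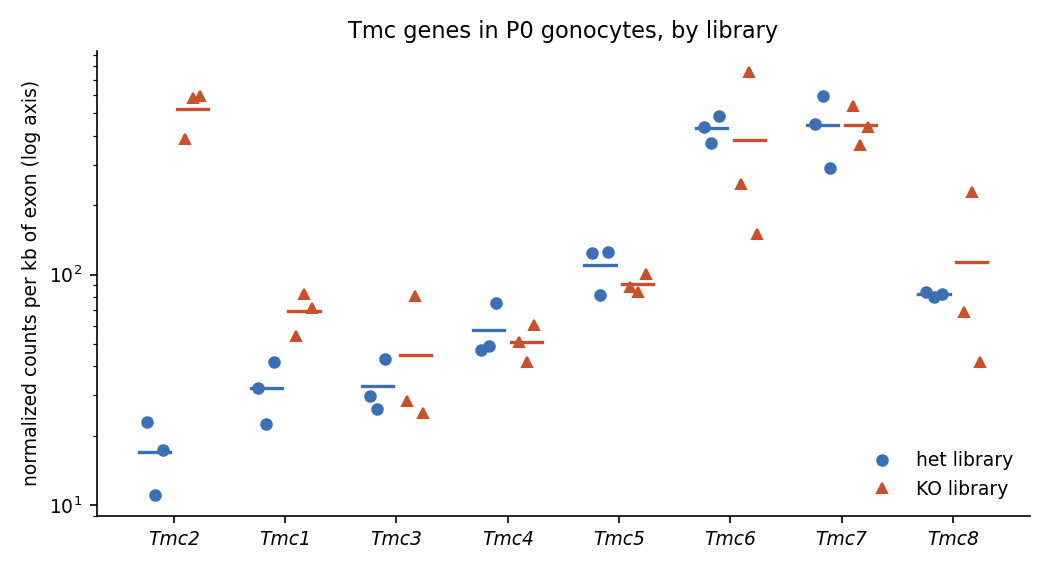
Normalized counts per kb of annotated exon (log axis) for the 8 Tmc genes in P0 gonocytes; each point is 1 library (circles het, triangles KO) and each bar the mean of 3. Tmc2 has the lowest het mean, 17.1 per kb, and the highest KO mean, 521 per kb.

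Read per kb of exon, Tmc2 was the lowest of the 8 genes in the het libraries, at 17.1 normalized counts per kb, and the highest in the KO libraries, at 521. The het order from the top was Tmc7 at 446, Tmc6 at 432, Tmc5 at 110, Tmc8 at 82.0, Tmc4 at 57.2, Tmc3 at 33.0, Tmc1 at 32.2 and Tmc2 at 17.1 normalized counts per kb. In that order the libraries of Tmc6 and Tmc5, of Tmc8 and Tmc4, and of Tmc4 and Tmc3 did not overlap, while the other 4 neighbouring pairs did. In the KO libraries the levels per kb were 521 for Tmc2, 446 for Tmc7, 385 for Tmc6, 113 for Tmc8, 91.2 for Tmc5, 69.2 for Tmc1, 51.1 for Tmc4 and 44.6 for Tmc3. There only Tmc5 and Tmc1 were neighbours whose libraries did not overlap, so the top place of Tmc2 over Tmc7 lies within the spread of the libraries. The plot of levels per kb shows the same shift of Tmc2 from bottom to top.

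The other hair cell channel gene, Tmc1 (chr19:20783458-20954202, minus strand), stood at 233, 161 and 301 normalized counts in het and at 388, 592 and 512 in KO libraries. All 3 KO libraries were above all 3 het libraries, with means of 232 ± 70.0 and 497 ± 103 (SD, n = 3 each). The log2 difference was 1.12 (SE 0.31), which did not pass the test (limma, adjusted p = 0.279 over all genes). The lowest adjusted p over the alternative settings was 0.0512, from DESeq2 on the recovered reads. The Tmc1 gene overlaps an antisense gene, AC102790.1, over 24618 bp, and whether counting used strand is not given in the sources used here.

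Tmc6 and Tmc8, known as EVER1 and EVER2 in human skin disease with papillomavirus susceptibility, are neighbours on chromosome 11 that share 123 bp on opposite strands. Tmc8 also overlaps the antisense genes Gm11723, over 1730 bp, and Gm11724, over 1417 bp, which makes its counts uncertain. Tmc6 (chr11:117765988-117782198) stood at 1786, 1517 and 2002 normalized counts in het and at 1012, 3098 and 611 in KO libraries. Tmc8 (chr11:117782076-117793110) stood at 257, 243 and 252 in het and at 210, 698 and 127 in KO libraries. In both genes KO replicate 2 was above, and the other 2 KO libraries below, all het libraries. The log2 differences were -0.50 (SE 0.48) and 0.08 (SE 0.52), with adjusted p of 0.909 and 0.99 by limma. Leaving out KO replicate 2 gave -1.16 for Tmc6 and -0.61 for Tmc8, and leaving out KO replicate 3 gave 0.01 and 0.61, again with no call.

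Tmc7 (chr7:118535841-118584736), which is needed for acrosome formation in later male germ cells, was the most abundant relative. It stood at 2601, 3440 and 1663 normalized counts in het and at 3103, 2099 and 2513 in KO libraries, and the groups overlapped (log2 difference 0.05, SE 0.29, limma adjusted p = 0.99). Tmc5 (chr7:118597297-118675086), its neighbour on the opposite strand, stood at 554, 366 and 561 in het and at 396, 377 and 451 in KO libraries (log2 difference -0.25, SE 0.27, limma adjusted p = 0.921). Tmc3 (chr7:83584927-83625614) was at 268, 237 and 388 in het and at 256, 725 and 227 in KO libraries, with KO replicate 2 again the highest (log2 difference 0.26, SE 0.43, limma adjusted p = 0.949). Over 3515 bases the Tmc3 transcript is mirrored on the other strand by the antisense transcript Gm16638, so its counts are uncertain. Tmc4 (chr7:3665790-3677553) was at 201, 211 and 323 in het and at 219, 179 and 259 in KO libraries (log2 difference -0.14, SE 0.31, limma adjusted p = 0.963). Tmc4 shares 51 bp with Leng1 on the same strand and 4027 bp with the antisense gene Gm15929, so its counts are uncertain too.

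Of the 7 relatives of Tmc2, 0 were called in either direction by limma, against 0.473% of all genes tested. At an unadjusted p under 0.05 there was 1 (Tmc1), against 6.86% of all genes. DESeq2 and edgeR on the recovered reads also called 0 of the 7. Their median log2 difference was 0.05, against -0.02 over all genes tested. Only Tmc1 had all KO libraries above all het libraries, a pattern that 7.17% of tested genes showed, and none had all KO libraries below, against the 5.57% given above.

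At the Tmc2 start, 4 listed TE copies lay in or within 1000 bp before an annotated first exon, all on the strand of Tmc2. The copy that covers the start is 181 bp long, at chr2:130195032-130195212, and its last 19 bp are the first bases of exon 1 (chr2:130195194-130195394). It stood at 21.1, 11.2 and 27.8 normalized counts in the het libraries and at 671, 683 and 961 in the KO libraries. Every KO library was above every het library. The means were 20.0 and 772, a 38.5-fold difference, and the log2 difference was 5.27 (SE 0.41).

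Directly upstream and without a gap lie a 388 bp copy at chr2:130194644-130195031 and, before it, a 464 bp copy at chr2:130194180-130194643. The 388 bp copy had 0, 0 and 3.83 normalized counts in het and 87.8, 111 and 127 in KO libraries. The 464 bp copy had 0, 0 and 0.96 in het and 39.1, 36.4 and 53.0 in KO libraries. Another copy, 180 bp long at chr2:130195359-130195538, runs over the last 36 bp of exon 1 into intron 1. It had 2.11, 0 and 0 normalized counts in het and 41.0, 58.8 and 41.9 in KO libraries. All 3 copies were near 0 in het and present in every KO library, with log2 differences of 6.01, 5.11 and 5.03 in the order given. With so few het reads these values are set largely by the pseudocount of 1: between pseudocounts of 10 and 0.1 they ran from 3.40 to 8.31, from 2.34 to 7.59 and from 2.41 to 7.38. Per 100 bp of copy, the KO level along the Tmc2 strand was 9.23 in the 464 bp copy, 28.1 in the 388 bp copy, 427 in the copy over the start and 26.3 in the 180 bp copy after it. Summed over the 4 copies, het libraries held 23.2, 11.2 and 32.6 normalized counts and KO libraries 839, 890 and 1184.

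**Figure D2:**
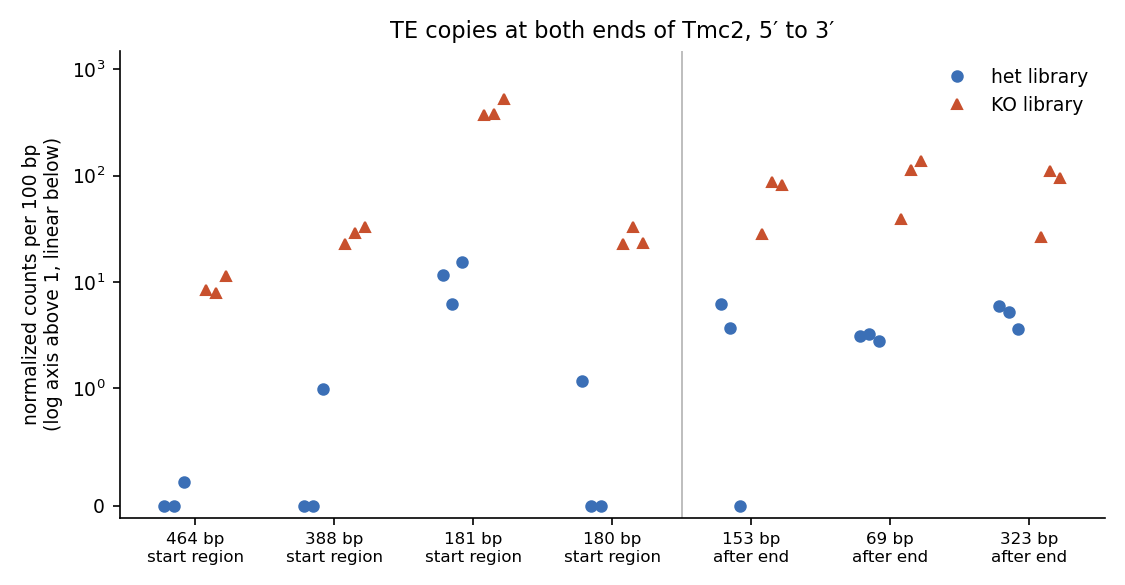
Normalized counts per 100 bp of copy (log axis above 1, linear below) for the 4 TE copies at the Tmc2 start and the 3 copies after its end, each point 1 library (circles het, triangles KO). KO libraries lie above het libraries in all 7 copies, and the 181 bp copy over the start is the highest, at a KO mean of 427 per 100 bp.

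The rest of the Tmc2 gene held 34 further listed copies, 29 on the strand opposite to Tmc2 and 5 on the same strand. Every KO library was above every het library in 28 of the 34, against 9.24% of all listed copies. The groups overlapped in 6, and 13 had no read in any het library, against 6.27% of all listed copies. Summed over the 34 copies, het libraries held 45.4, 25.8 and 33.5 normalized counts and KO libraries 483, 677 and 573, a 16.6-fold difference of the means. Copies on both strands were higher: the mean sum went from 2.77 to 48.1 on the Tmc2 strand and from 32.1 to 530 on the opposite strand. Strand handling in the counting is not given in the sources used here, so the strand of the reads is not known.

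Of these intragenic copies, 11 had a mean of at least 10 over the 6 libraries and thus entered the fit. All 11 reached that mean through the KO libraries, with het means of 0 to 3.11, so they had to differ, and their log2 differences of 2.79 to 4.79 describe only copies that are high in KO. A 609 bp copy at chr2:130218090-130218698 had 7.38, 0 and 0 normalized counts in het and 85.8, 58.1 and 33.4 in KO libraries. A 1169 bp copy at chr2:130236465-130237633 had 0, 1.12 and 4.79 in het and 24.8, 50.3 and 113 in KO libraries. The 431 bp copy at chr2:130226967-130227397 had 6.33, 1.12 and 0 in het and 62.0, 69.7 and 54.7 in KO libraries. KO libraries were apart from het libraries in each of these, but which KO library was highest varied from copy to copy.

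The other 8 are given by their pattern rather than by position. The copies at chr2:130202954-130203343, chr2:130215469-130215782 and chr2:130232594-130232958 had no read in het libraries. They had 24.8, 27.9 and 22.2, then 14.3, 23.2 and 31.6, and then 20.0, 19.4 and 22.2 normalized counts in the KO libraries. These 3 were thus seen in KO libraries alone, at levels of similar size. The copy at chr2:130223658-130224151 had 1.05, 0 and 0 in het and 25.8, 41.0 and 7.70 in KO libraries. The copy at chr2:130237813-130238158 had 1.05, 2.24 and 4.79 in het and 10.5, 25.5 and 53.9 in KO libraries. The copy at chr2:130243356-130243892 had 4.22, 2.24 and 2.88 in het and 18.1, 49.5 and 40.2 in KO libraries. In these the KO spread was wider, and the lowest KO library was replicate 3 in the first and replicate 1 in the other 2. A listed copy of only 13 bp, at chr2:130227485-130227497 on the Tmc2 strand, had 2.11, 1.12 and 0.96 in het and 20.98, 27.1 and 19.7 in KO libraries. The smallest difference, 2.79, was at chr2:130217542-130217942, with 1.05, 0 and 6.71 in het and 18.1, 34.1 and 6.84 in KO libraries, the groups being separate by a narrow margin.

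Just past the annotated end of Tmc2 lay 3 copies on the opposite strand, 258, 678 and 965 bp after it. RefSeq places the end 744 bp further than GENCODE, and only the last of the 3 lies beyond that end, by 221 bp. This 323 bp copy, at chr2:130265410-130265732, had 19.0, 16.8 and 11.5 normalized counts in het and 85.8, 355 and 307 in KO libraries. The 153 bp copy at chr2:130264703-130264855 had 9.49, 5.61 and 0 in het and 42.9, 134 and 124 in KO libraries. The 69 bp copy at chr2:130265123-130265191 had 2.11, 2.24 and 1.92 in het and 26.7, 77.4 and 94.1 in KO libraries. In all 3 the KO libraries were above the het libraries and KO replicate 1 was the lowest KO library, as it was for Tmc2 itself. Their log2 differences were 3.69, 4.46 and 4.26.

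**Figure D3:**
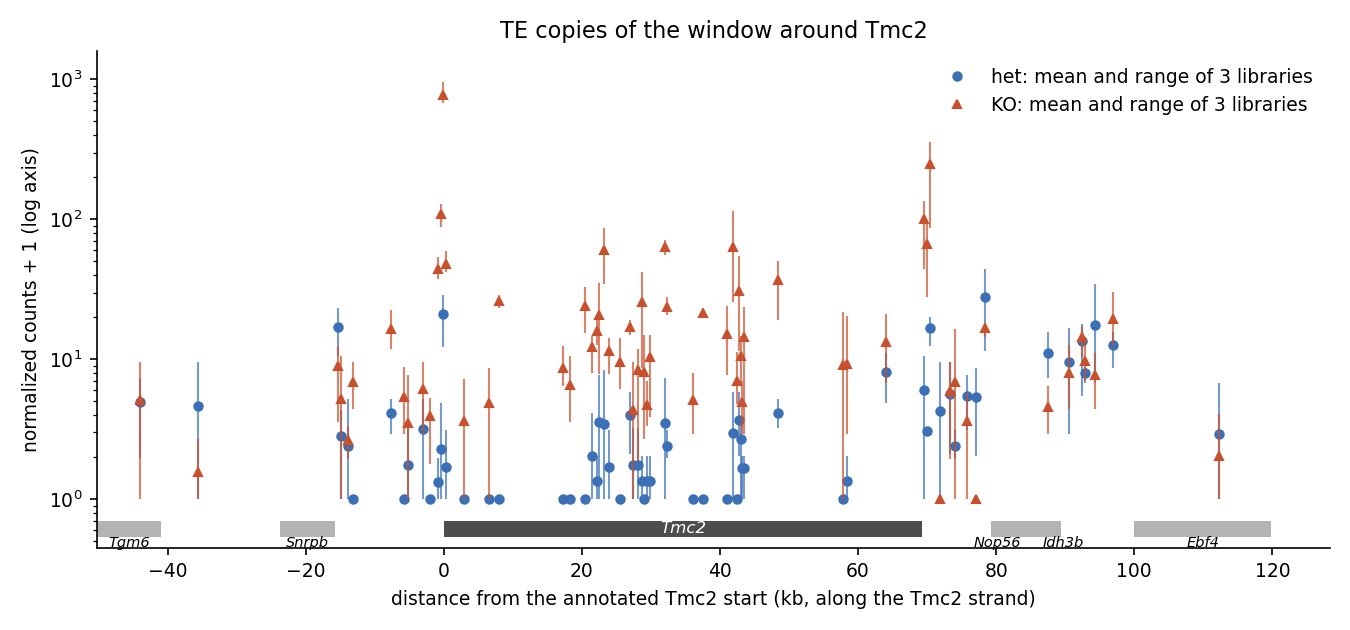
Normalized counts + 1 (log axis) of the 65 TE copies by distance from the Tmc2 start (kb); symbols are means of 3 libraries, lines their range, and bars below the tested genes of the window. KO means stand above het means from the copies at the start, the highest at 772, through Tmc2 to the 3 copies after its end. In some copies within Tmc2 the libraries overlap. Before the start region the summed copies are 1.68-fold by the means, KO over het, and further after Tmc2 they are 0.78-fold.

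Outside Tmc2 and these flanks, the summed normalized counts before and after Tmc2 differed in opposite directions, and only their pool overlapped between the groups. The 11 copies before the start region summed to 36.9, 40.4 and 21.1 normalized counts in het and 64.9, 56.5 and 43.6 in KO libraries. This sum was higher in every KO library (1.68-fold by the means). Of the 11 copies, 4 were separated and higher in KO, against 9.24% of all listed copies. Among these 4, the copy at chr2:130187520-130187634 had 4.22, 3.37 and 1.92 in het and 14.3, 10.8 and 21.4 in KO libraries. In the other 7 copies before the start region the groups overlapped. The 13 copies further after Tmc2 summed to 124, 120 and 95.8 in het and to 74.4, 94.4 and 95.8 in KO libraries. This scaled sum was lower in every KO library, with het replicate 3 and KO replicate 3 almost level. Of the 13 copies, 2 were separated and lower, against 6.75% of all listed copies. Before scaling, the 13 copies held 118, 107 and 100 reads in het and 78, 122 and 112 in KO libraries. Those reads overlapped between the groups, so the order of the sums depends on the scaling. Pooled, these 24 copies held 161, 160 and 117 in het and 139, 151 and 139 in KO libraries, and the groups overlapped. Of the 24, 5 were tested and none was called, against 16.3% of all copies tested. The copy at chr2:130179805-130180020, before Tmc2, had 15.8, 22.4 and 9.58 normalized counts in het and 11.4, 10.1 and 2.57 in KO libraries. The copy at chr2:130273522-130273714 had 43.2, 26.9 and 10.5 in het and 13.4, 17.0 and 17.1 in KO libraries. In both, as in the other 3 tested, the groups overlapped. Those at chr2:130287582-130287794, chr2:130289168-130289796 and chr2:130291931-130292152 had het means of 12.6, 16.6 and 11.6 and KO means of 13.4, 6.72 and 18.4. The border of 2 kb after the end was set after these values were seen.

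Over the whole window, 39 of 65 copies had every KO library above every het library, against 9.24% of all listed copies, 2 had the reverse, against 6.75%, and in 24 the groups overlapped. No read in any het library was recorded for 16 of the 65, against 6.27% of all listed copies. Of the 65, 23 reached a mean of at least 10 and entered the limma fit, and 17 of these were past an adjusted p of 0.05 and higher in KO, and 0 lower. Over all 49781 copies fitted, 15.6% were higher and 0.735% lower at that threshold. Of the 17, 15 had a het mean below 10 and reached the filter through the KO libraries. All 17 lay at the start, in Tmc2 or just after its end, where 18 copies were fitted. The window was chosen with this contrast known, so nothing is read from these counts. At the window's edges values were low: the first copy inside had means of 3.92 in het and 4.15 in KO and the nearest outside 2.03 and 2.52, while the last inside had 1.92 and 1.03 and the next outside 2.90 and 1.27.

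Reads of the copy over the start were set against reads of Tmc2 in each library. Per 100 Tmc2 reads there were 26.0, 27.0 and 50.9 reads of that copy in het libraries and 55.7, 48.8 and 57.7 in KO libraries. Het replicate 3 lay within the KO range and the other 2 het libraries below it, on 20, 10 and 29 reads of the copy in het and 704, 883 and 1124 in KO libraries. The 34 copies in the rest of the gene gave 55.8, 62.2 and 61.4 reads per 100 Tmc2 reads in het and 40.0, 48.3 and 34.4 in KO libraries, lower in every KO library. The 3 copies after the end gave 37.7, 59.5 and 24.6 in het and 12.9, 40.4 and 31.5 in KO libraries, with overlap. A read may be counted in both tables, so these ratios are not shares of transcripts.

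**Figure D4:**
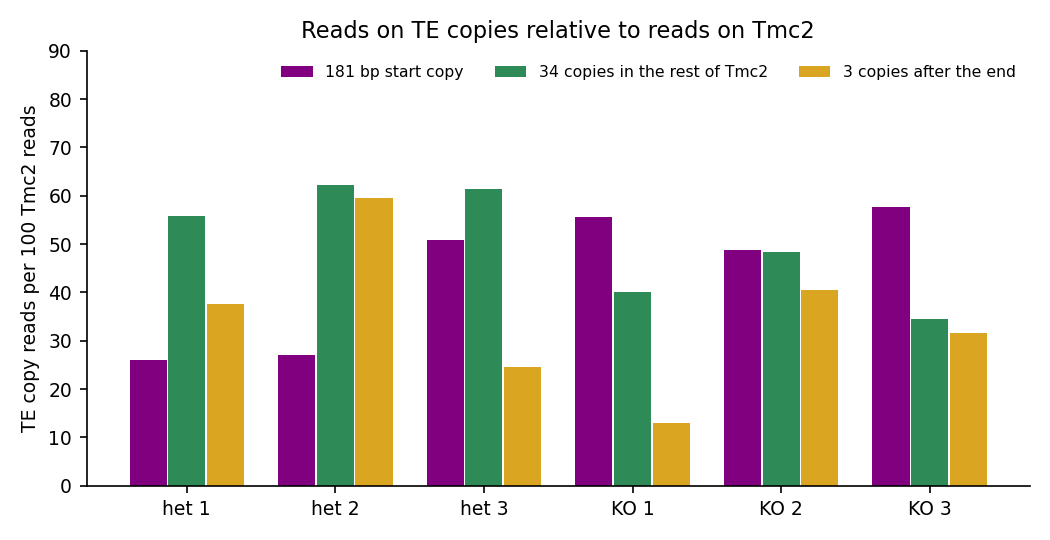
TE copy reads per 100 Tmc2 reads in each of the 6 libraries, for the 181 bp copy over the start, the 34 copies in the rest of Tmc2 and the 3 copies after its end. The copy over the start gives 26.0 to 50.9 in het and 48.8 to 57.7 in KO libraries, and the copies in the rest of the gene are lower in each KO library than in each het library.

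Genes beside Tmc2 were compared next. The window overlaps 10 other annotated genes, of which 6 were listed and 5 tested, and 0 were called by limma, DESeq2 or edgeR, with 0 at an unadjusted limma p under 0.05. With 0.473% of all genes called, 0 of 5 is near the background. Tgm6, a transglutaminase gene before Tmc2, stood at 155, 103 and 106 normalized counts in het and at 157, 237 and 175 in KO libraries (log2 difference 0.64, limma adjusted p = 0.799). Snrpb, which encodes a core spliceosomal protein, stood at 19304, 23381 and 13148 in het and at 19826, 22363 and 15936 in KO libraries (log2 difference 0.08). Nop56, a snoRNP gene that starts 9984 bp after the Tmc2 end, stood at 8920, 8327 and 8231 in het and at 7596, 7542 and 9465 in KO libraries. Idh3b, a mitochondrial isocitrate dehydrogenase subunit, stood at 6085, 6805 and 4639 in het and at 7443, 5025 and 7038 in KO libraries. Ebf4, a transcription factor gene, stood at 160, 211 and 502 in het and at 206, 436 and 167 in KO libraries. The KO libraries of Tgm6 lay above its het libraries by a small margin, and the groups overlapped in the other 4.

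The other 7 Tmc genes held 64 listed TE copies in the gene or within 1000 bp of either end. Of the 9 tested, limma called 0, against 16.3% of all copies tested. Of the 64, 4 were separated and higher in KO and 4 separated and lower, against 9.24% and 6.75% of all listed copies. Copies at the start of any annotated transcript were found for Tmc5, with 2, and Tmc6, with 1. Het and KO libraries overlapped in all 3. These starts are internal: the copies lie inside the genes, at chr7:118599821-118599888 and chr7:118622257-118622771 in Tmc5 and chr11:117769632-117769953 in Tmc6. They are thus not counterparts of the copy over the Tmc2 start. The copy at the internal Tmc6 transcript start had 8.44, 3.37 and 17.3 normalized counts in het and 11.4, 34.8 and 0 in KO libraries. Tmc1 had 16 copies and none at its start, and their sum was 40.1, 41.5 and 72.8 in het and 80.1, 142 and 174 in KO libraries, all KO above all het like the gene itself.

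The promoter of Tmc1 is shown because that gene has the best-scoring transcript match to Tmc2 and the next largest difference of the family, and no listed TE copy there. Its 250 bases before the RefSeq start are on the minus strand at chr19:20954203-20954452 (RefSeq, GRCm38.p6). Capitals mark CCAAT, searched on both strands with TATAAA and GGGCGG, which do not overlap it.
Tmc1: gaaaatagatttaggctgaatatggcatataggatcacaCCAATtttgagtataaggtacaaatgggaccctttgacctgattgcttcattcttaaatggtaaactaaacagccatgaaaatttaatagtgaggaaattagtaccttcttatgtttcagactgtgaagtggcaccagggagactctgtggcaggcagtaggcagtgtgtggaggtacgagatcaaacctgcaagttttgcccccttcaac
CCAAT was found 1 time and the other 2 motifs were not found. Over 32851 RefSeq promoters cut to the same length, 33.8% hold CCAAT, 12.4% TATAAA and 32.7% GGGCGG. Of the 8 Tmc genes, 6 matched the RefSeq promoter table, and none of these 6 stretches overlaps a listed TE copy. Tmc2 and Tmc5 had no match, so the bases before the Tmc2 start, where listed copies lie, are not among them.

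Partners of the TMC channels were examined as a list of 15 genes. It holds the hair cell transduction complex and tip link genes (Tmie, Lhfpl5, Cib2, Pcdh15, Cdh23), other Usher and hair bundle genes, and the TMC6 and TMC8 partners Cib1 and Slc30a1. All 15 were tested, limma called 0, against 0.473% of all genes, 1 had an unadjusted p under 0.05, against 6.86%, and the median log2 difference was -0.05. That gene was Pcdh15, the tip link protocadherin, at 442, 423 and 397 normalized counts in het and 704, 698 and 969 in KO libraries. Its KO libraries were above its het libraries, and the log2 difference of 0.89 (SE 0.24) did not pass the limma test (adjusted p = 0.257), whereas DESeq2 gave an adjusted p of 0.0281. Myo7a, an unconventional myosin and the most abundant of the list, stood at 6598, 6676 and 3521 in het and at 5752, 3030 and 2878 in KO libraries, with overlap. Tmie, Lhfpl5, Cib1 and Cib2, which bind or assemble with TMC proteins, overlapped between the groups as well.

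The TMEM63 channels and anoctamins, families related to TMC in structure, gave 13 tested genes and 0 limma calls, against 0.473% of all genes. There were 3 at an unadjusted p under 0.05, against 6.86% of all genes, and the median log2 difference was -0.35. The 3 were Ano4 and Ano5, higher in KO, and Tmem63a, lower in KO, and none passed after adjustment. Ano4 stood at 304, 310 and 226 normalized counts in het and at 532, 561 and 720 in KO libraries, with no overlap. Its log2 difference of 1.11 (SE 0.26) did not pass the limma test (adjusted p = 0.161), whereas DESeq2 gave an adjusted p of 0.00659. Ano5 stood at 90.6, 66.6 and 80.9 in het and at 128, 129 and 457 in KO libraries, with KO replicate 3 far above the rest (log2 difference 1.31, limma adjusted p = 0.595). Tmem63a stood at 1918, 1664 and 1598 in het and at 1489, 712 and 928 in KO libraries, lower in each (log2 difference -0.79, limma adjusted p = 0.543). Tmem63b, an osmosensitive cation channel and the most abundant of the list, stood at 3171, 3208 and 3035 in het and at 4328, 3032 and 2736 in KO libraries, with overlap.

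**Figure D5:**
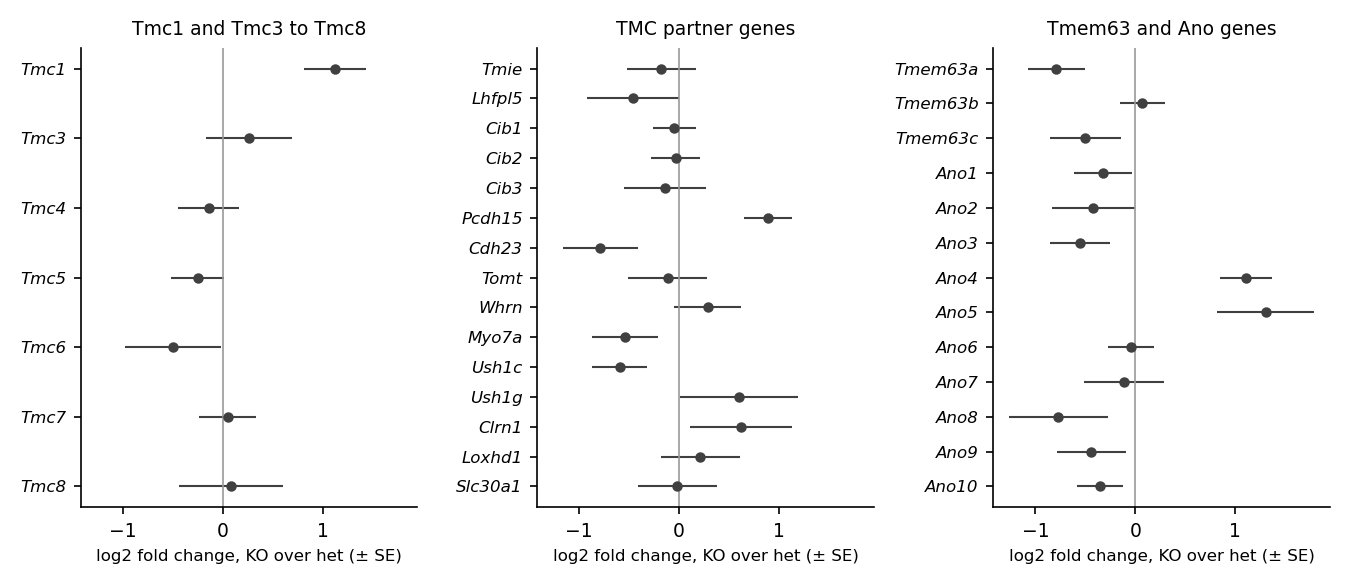
Log2 differences, KO over het, with SE from limma (n = 3 and 3 libraries) for Tmc1 and Tmc3 to Tmc8, the 15 TMC partner genes and the 13 Tmem63 and Ano genes. Ano5 at 1.31, Tmc1 at 1.12, Ano4 at 1.11 and Pcdh15 at 0.89 lie farthest to the right and Tmem63a and Cdh23, both at -0.79, farthest to the left, and none of the genes shown passed the limma threshold.

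The genes whose levels followed Tmc2 most closely were picked by Pearson's r of log2(value + 1) over the 6 libraries, a measure dominated by the 2 genotypes. They were Gm26628 and 4933433F19Rik (both r = 0.996), Gm5967 (0.995), 4930558C23Rik (0.995) and Grid1 (0.993). Among these, 4930558C23Rik, at 40.1, 31.9 and 34.1 normalized counts in het and 1357, 1568 and 1847 in KO libraries, was nearest to Tmc2 in level. Grid1, a delta-type glutamate receptor gene, went from 414, 359 and 360 to 886, 1040 and 907. In these 2 genes, as in Tmc2, each KO library was well above each het library. The remaining genes were also separated, at far lower levels. Gm26628 went from 21.9, 18.4 and 22.4 to 41.6, 46.5 and 48.0, only 2.17-fold by the means (limma adjusted p = 0.691). The counts of 4933433F19Rik rose from 12.4, 10.6 and 12.7 to 51.5, 55.8 and 64.7 (limma adjusted p = 0.135). Gm5967 moved from 0.95, 0 and 0.98 to 39.6, 44.4 and 37.2 (limma adjusted p = 0.052). Limma called 4930558C23Rik and Grid1 and none of the remaining genes, with 0.473% of all genes tested called. These genes were picked by likeness to Tmc2 over the same libraries. Their separation was thus largely fixed by that choice, and nothing is read from the adjusted p or the calls.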

How the data were processed

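RNA-seq libraries of P0 gonocytes from Morc1 (+/-) and Morc1 (-/-) mice (3 each) were used, grouped by genotype in the labels. The values of both tables are a signal: the authors scaled the read counts of each library by a DESeq2 size factor, as the deposited gene table's name and the steps in the deposited TE values show. bcl2fastq 2.20, cutadapt 1.18, HISAT2 2.1.0, featureCounts 1.5.2, DESeq2 1.26.0 and mm10/GRCm38 are named in the submitters' processing notes. How reads matching several places were counted is not given in the sources used here, and a read may be in both tables. TE copies carry no family name.

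Symbols and positions came from GENCODE M21 (35560 of 35666 IDs matched). Features with a mean of at least 10 (26005 genes, 49781 copies) entered a two-sided limma 3.58.1 fit with trend (R 4.3.3) on log2(value + 1), which understates changes of low features, with Benjamini-Hochberg adjustment over all of them and a threshold of 0.05. Whole reads were recovered for 100.0% of values (tolerance 0.001), though for KO replicate 1 the gene step is close to 1. On these reads edgeR 4.0.16 called 121 genes higher and 8 lower, and 6479 and 352 copies; DESeq2 1.42.0 was also run. Transcripts were compared with blastn 2.17.0. Other alternatives were the pseudocount, filter, trend, scaling, a replicate block and leaving out libraries.

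Same-numbered libraries did not deviate together (correlations over genes of 0.14, -0.16 and -0.04), so the numbers were not treated as pairs. Nothing says that libraries came from separate animals, so p-values measure only the spread between these samples. No pair agreed within counting noise. The reads carry no molecular identifiers. The members and gene lists were chosen with earlier results of these data known. Named with values were all Tmc genes, every tested copy of the window, an untested copy before Tmc2, and tested neighbours. Also named were the germ cell marker Nanos3, the hair cell markers Myo6 and Pou4f3, and the 5 genes most like Tmc2. Of each list the most abundant gene and the gene with the smallest p were named too.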

Additional observations from a re-analysis of the deposited data

How the results depend on the processing

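The log2 difference of Tmc2 ranged from 4.67 to 5.18 over 15 alternatives. That of the copy over its start ranged from 4.72 to 5.59 over 16, and was lowest, at 4.72, with a pseudocount of 10. The 3 copies beside it, with few het reads, moved most with the pseudocount: 2.34 to 7.59 for the 464 bp copy, 3.40 to 8.31 for the 388 bp copy and 2.41 to 7.38 for the 180 bp copy. The 17 window copies called became 4 with a mean of at least 50, since fewer copies were tested, and 10 to 17 when 1 library was left out, with 10 without KO replicate 1, KO replicate 2 or KO replicate 3. Quantile scaling moved the median of all copies from 0.03 to -0.41 and the gene table's size factors moved it to 0.38, with 15 and 17 window copies called. The 7 other Tmc genes and the neighbours had 0 calls throughout. DESeq2 called 1 TMC partner gene (Pcdh15) and 1 TMEM63 or anoctamin gene (Ano4), against 0 with limma, and called 400 genes higher and 65 lower in all, against 112 and 11; the cause was not tested. With the replicate block, 13 window copies were called, 0 other Tmc genes, 0 neighbours, 0 partner genes and 0 TMEM63 or anoctamin genes, and over all genes 64 higher and 5 lower. The log2 differences under the block were 4.94 for Tmc2 and 5.27 for the copy over its start. The het values of the copies rest on few reads: 29 of the 41 at the start, in Tmc2 or just after it had at most 3 reads in each het library. The share of all listed copies at that level is not given here.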
